A study of Mus musculus with 3 samples.

Results

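The genes described here are the nuclear genes of oxidative phosphorylation, and they were chosen by the letters of their symbols. Symbols starting with Ndufa, Ndufb, Ndufc, Ndufs, Ndufv, Sdha, Sdhb, Sdhc, Sdhd, Uqcr, Cox4i, Cox5, Cox6, Cox7, Cox8 or Atp5 were taken, without pseudogenes and without the Ndufaf assembly factors. A gene also had to reach 30 unique molecular identifiers (UMIs, the molecules counted) over barcodes with at least 1000 UMIs and at most 30% mitochondrial UMIs. Of 31053 entries in the feature list 89 matched the letters, and 85 of them reached the minimum, as did 14623 genes in all. They were 38 genes of complex I, 4 of complex II, 8 of complex III, 15 of complex IV, 16 of complex V and the 4 Sdhaf genes, which help to assemble complex II and which the letters also caught. Genes were placed in a complex by the letters of their symbols, which puts Ndufa4 in complex I. The 4 entries left out were Cox7b2, Cox8c and a second Atp5o entry, each listed with 0 UMIs, and Cox8b with 5 UMIs.

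Live CD45+ cells were sorted from digested mouse pancreas and profiled with droplet-based RNA sequencing that counts the 3' ends of transcripts. WGP, a particulate β-glucan from yeast, was injected into the peritoneal cavity as a single dose of 1 mg, and cells were taken 3 days (3-day WGP) or 7 days (7-day WGP) later. The third library came from mice given PBS (PBS). All 3 groups were wild-type C57BL/6J mice of 6 to 8 weeks and of both sexes, and the number of mice behind each library is not given in the sources used here. Each group was 1 library, so no difference between groups has a replicate check, no p-value is given, and the intervals printed are exact 95% intervals that cover counting error only. A barcode held in 2 libraries was rare, with 5 shared by PBS and 3-day WGP, 1 by PBS and 7-day WGP and 4 by the WGP libraries.

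Oxidative phosphorylation passes electrons from NADH through complex I, or from succinate through complex II, to ubiquinone, then through complex III and cytochrome c to complex IV, which reduces oxygen. The proton gradient built on the way drives complex V, the ATP synthase. Most subunits are made from nuclear genes and imported, while a small set is encoded by mitochondrial DNA, and macrophages and other immune cells are known to shift between this pathway and glycolysis when they are activated.

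Totals over every barcode, in the order PBS, 3-day WGP and 7-day WGP, were 52464690, 56849043 and 48219246 UMIs. In the same order 4853, 4527 and 3938 cells were kept, with median depths of 5636, 5507 and 7901.5 UMIs. Cells were grouped into clusters without any of the 85 genes among the clustering genes, and each cluster was named by fixed markers, so a name such as monocyte/macrophage stands for cells that resemble that type. The libraries differed in the sex of their cells. Over all kept cells 1915 had Xist UMIs and 1566 Y-linked UMIs in PBS, against 405 and 2348 in 3-day WGP and 1127 and 1761 in 7-day WGP. In the monocyte/macrophage class 744 cells of PBS had Xist UMIs and 6 had Y-linked UMIs, against 74 and 482 in 3-day WGP and 567 and 573 in 7-day WGP. The mix differed between classes too. Among PBS cells with UMIs of either kind, 0.8% of monocytes/macrophages and 74.8% of B cells had Y-linked UMIs. Sex and treatment therefore cannot be told apart over the whole monocyte/macrophage class at either time. Values within cells of the same sex are given beside the results where the cells allow it.

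Over all kept cells the 85 genes took 1.56%, 1.64% and 1.99% of UMIs in PBS, 3-day WGP and 7-day WGP. Among the named classes their share was highest in plasmacytoid dendritic cells in PBS (2.12%), in gamma-delta T cells in 3-day WGP (2.36%) and in conventional dendritic cells in 7-day WGP (2.28%). The neighbours at the top were close. In PBS the summed level was 20289 CPM (counts per 1000000 UMIs, interval 19945 to 20638) in NK cells, 20095 (19719 to 20477) in gamma-delta T cells and 20062 (19925 to 20199) in conventional dendritic cells, and these intervals overlap. In 7-day WGP the intervals of neighbours also overlapped in turn from conventional dendritic cells (22824 CPM) through NK cells (22765 CPM) and monocytes/macrophages (22553 CPM) to plasmacytoid dendritic cells (22372 CPM). T cells (1.66%, 1.83% and 2.09%) and B cells (1.48%, 1.59% and 1.55%) were lower, and neutrophils (1.18%, 1.08% and 0.994%), plasma cells (1.13%, 1.27% and 0.823%) and erythroid cells (0.0568%, 0.0622% and 0.111%) were lower again. Acinar cells, ranked only in 3-day WGP (74 cells), stood at 11864 CPM there, between plasma cells and neutrophils. Left out of this ranking was cluster 19, which has no name and held 33, 59 and 42 cells, most of them scored as cycling. Its median share per cell was 2.23%, 2.39% and 2.76%, above the median of every named class in each library.

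**Figure D1:**
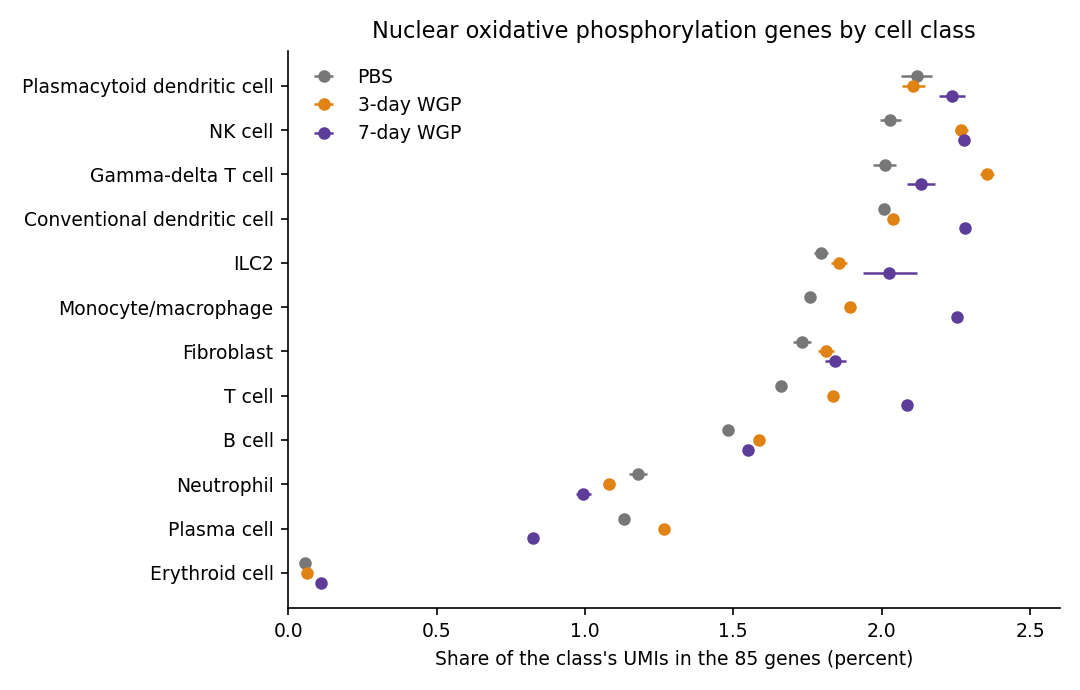
Share of UMIs that the 85 genes took in each cell class (x axis, percent of the class's UMIs) in PBS (grey), 3-day WGP (orange) and 7-day WGP (purple), with bars for the exact 95% counting interval. The monocyte/macrophage points run from 1.76% in PBS to 2.26% in 7-day WGP, while the neutrophil points run from 1.18% down to 0.994%.

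The order of the classes changed with the total used. Without mitochondrial, ribosomal-protein, immunoglobulin, haemoglobin and acinar enzyme genes in the total, called the reduced total below, plasma cells held the highest level in every library among the named classes other than acinar cells (31947, 34294 and 33261 CPM), and neutrophils the lowest (12647, 11766 and 10764 CPM). Monocytes/macrophages against all other cells of their library were higher on the full total, with log2 ratios of 0.23, 0.28 and 0.34 in the same order of libraries, and the sign turned on the reduced total (-0.25, -0.38 and -0.06). Neutrophils were lower than the other cells on both scales, at -0.40, -0.61 and -1.01 on the full total and -1.01, -1.25 and -1.41 on the reduced total. A gene counted as different when its CPM, after 10 CPM was added to both values, differed at least 1.5-fold, among genes with a mean of at least 20 CPM. In neutrophils 29 of 76 genes tested were that much lower than the other cells in every library, against 21.9% of all genes. In monocytes/macrophages 4 of 78 were higher in every library (Sdhc, Ndufc1, Atp5k and Uqcr11), under the 17.5% of all genes. In conventional dendritic cells 2 were higher (Atp5f1 and Ndufa6, against 8.23% of all genes), and in NK cells 1 was (Ndufa4, against 13.4%).

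Most of the 85 genes followed one another across classes. Over 33 points, the 11 classes in 3 libraries, Spearman's rho of a gene with the sum of the others had a median of 0.805, and 78 of the 85 lay above 0.5. Over all genes compared with the same sum the median was 0.487, and 47.8% lay above 0.5. The points share libraries, depth and the same totals, so this is a description. Cox4i2 and Ndufa4l2, isoforms associated with low oxygen, lay below 0. Of the 5575 other genes compared, the 10 that followed the sum most closely were Mrpl36 (0.93), Psmb2 (0.928), Dctn3, Psmd13, Rbx1, Psmb3, Psma2, Tagln2, Psmb5 and Mrpl20 (0.901). They include a pair of mitochondrial ribosome proteins and 5 proteasome subunits.

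In the monocyte/macrophage class, with 790, 750 and 1440 cells, the 85 genes summed to 17598 CPM in PBS, 18934 CPM in 3-day WGP and 22553 CPM in 7-day WGP. The log2 ratio to PBS was 0.11 (0.096 to 0.115) at 3 days and 0.36 (0.349 to 0.367) at 7 days. Every complex was higher than PBS at both times, except that complex I at 3 days turned to -0.01 on the reduced total. Complex IV was furthest above PBS at 7 days, with 4790 CPM, 5285 CPM and 6736 CPM (log2 ratios 0.14 and 0.49), and complex V stood at 5038, 5564 and 6476 CPM (0.14 and 0.36). Complex I stood at 5421, 5608 and 6464 CPM (0.05 and 0.25), complex III at 1843, 1935 and 2303 CPM (0.07 and 0.32) and complex II at 411, 452 and 471 CPM (0.13 and 0.19). The 13 subunits that mitochondrial DNA encodes did not follow this order, with 42563, 47477 and 43064 CPM and log2 ratios of 0.16 and 0.02.

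Few single genes passed the size rule. At 3 days 3 of the 78 tested were higher (Atp5g3, Atp5k and Ndufc1), against 9.04% of all genes, and 1 was lower (Cox7a2l), against 8.32%. At 7 days 8 were higher (Atp5k, Atp5l, Cox5b, Cox7a2, Cox7b, Cox8a, Ndufb6 and Ndufc1), against 9.54% of all genes, and 0 were lower, against 11.9%. The count at 7 days is therefore near the background, while the median of the 78 log2 ratios was 0.28 beside -0.09 over all genes, and 66 of the 78 lay above 0 beside 39.4% of all genes. At 3 days the median was 0.08 beside -0.03, and 47 of 78 lay above 0 beside 46.4%. Composition factors from edgeR's TMM raised every log2 ratio of the class by 0.13 at 3 days and 0.26 at 7 days, and 5 and 30 of the genes then passed as higher with 1 and 0 lower. The same shift applied to all genes of the class. The share of all genes that passed with it is not given, so these counts have no background.

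**Figure D2:**
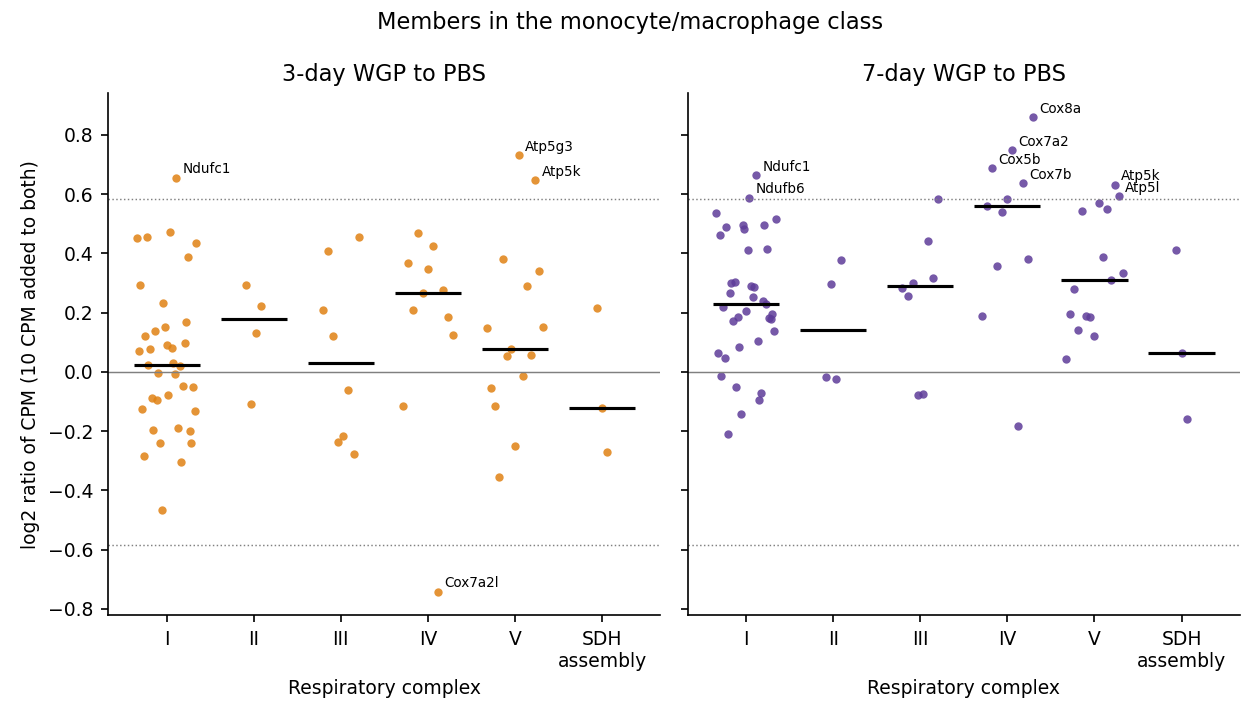
log2 ratio to PBS of each gene with a mean of at least 20 CPM in the monocyte/macrophage class (y axis, with 10 CPM added to both values), by complex (x axis), at 3 days (orange) and 7 days (purple), with a black line at the median of each complex and dotted lines at 1.5-fold. At 7 days the complex IV median stands at 0.56 and all 15 complex V genes lie above 0, and Cox7a2l is the gene furthest below 0 at 3 days.

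Complex I takes electrons from NADH, and its genes spread widely. At 7 days 31 of 37 tested had a log2 ratio above 0 (median 0.23), and at 3 days 20 of 37 did (median 0.02). Ndufc1, a small accessory subunit (chromosome 3, 51404677 to 51408988, minus strand, GRCm38), was highest at both times, with 140.5 CPM in PBS, 227 CPM in 3-day WGP and 228 CPM in 7-day WGP. Its log2 ratios were 0.69 (0.59 to 0.79) and 0.70 (0.61 to 0.80). Within cells of the class that had Xist UMIs it stood at 141, 178 and 229 CPM, and the 3-day ratio of 0.34 (0.11 to 0.56) did not pass 1.5-fold there. In cluster 8 its ratios were 0.14 and 0.35, against 0.77 and 1.03 in cluster 0. Ndufb11, another accessory subunit, was lowest at 3 days, with 205 CPM in PBS, 146 CPM in 3-day WGP and 185 CPM in 7-day WGP. Ndufs1, the largest core subunit, which carries iron-sulphur clusters, was level within counting error at 35.1, 35.7 and 32.2 CPM, and Ndufv1, which holds the NADH-binding site, stood at 48.1, 46.0 and 56.4 CPM.

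Transcript length moved with the log2 ratio. Across the 78 genes tested Spearman's rho between transcript length and log2 ratio was -0.34 at 3 days and -0.34 at 7 days, whereas across all genes it was 0.03 and -0.12. Genes share libraries and totals, so this is a description, and the part of length in the results was not tested.

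Complex II, succinate dehydrogenase, also works in the citric acid cycle and has no subunit from mitochondrial DNA. At 3 days Sdha, the catalytic flavoprotein, was highest of the 4, with 97.2 CPM in PBS, 121 CPM in 3-day WGP and 96.0 CPM in 7-day WGP. Sdhb, the iron-sulphur subunit, was lowest at 3 days, with 132, 121 and 164 CPM. The order turned at 7 days, when the membrane anchor Sdhd was highest with 90.4, 107 and 120 CPM, a log2 ratio of 0.41 (0.29 to 0.54), and the other anchor Sdhc was lowest with 92.1, 102 and 90.3 CPM. No gene of this complex passed 1.5-fold. Of the assembly factors, Sdhaf1, Sdhaf2 and Sdhaf4 reached 20 CPM and Sdhaf3 did not.

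Complex III, which hands electrons from ubiquinol to cytochrome c, was led at both times by Uqcrq, a small subunit (chromosome 11, 53427922 to 53430831, minus strand, GRCm38). Its level was 248 CPM in PBS, 343 CPM in 3-day WGP and 377 CPM in 7-day WGP, with log2 ratios of 0.47 (0.39 to 0.55) and 0.60 (0.53 to 0.68). Uqcrh, the hinge protein, went below PBS at 3 days and above it at 7 days, with 556, 457 and 696 CPM. The core protein Uqcrc1 was below PBS at 3 days (117, 97.9 and 111 CPM), and the Rieske iron-sulphur protein Uqcrfs1 was above it at 7 days (116, 111 and 161 CPM). At 7 days 6 of the 8 genes lay above 0, with a median of 0.29, and at 3 days 4 of 8 did, with a median of 0.03.

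Complex IV, cytochrome c oxidase, had the highest median at 7 days (0.56), with 10 of the 11 genes tested above 0, and at 3 days the median was 0.27 with 9 above 0. Cox8a, a small subunit in the membrane (chromosome 19, 7215153 to 7217616, minus strand, GRCm38), had the largest log2 ratio of all 78 genes at 7 days, with 619 CPM in PBS, 675 CPM in 3-day WGP and 1131 CPM in 7-day WGP. Its ratios were 0.12 (0.07 to 0.18) and 0.87 (0.83 to 0.91), so almost all of its difference lay between the WGP libraries. Cox5b (340, 395 and 554 CPM), Cox7a2 (274, 372 and 468 CPM) and Cox7b (233, 284 and 368 CPM) also passed 1.5-fold at 7 days. Cox4i1, a subunit through which ATP is known to act on the enzyme, showed less, with 918, 848 and 1048 CPM. Cox6a1, the form of subunit VIa found outside muscle, was highest of the complex at 3 days, with 247, 345 and 319 CPM, and Cox5a stood at 328, 425 and 488 CPM.

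Cox7a2l went the other way from its complex. It encodes a protein, also called SCAF1, that has been described as joining complex III and complex IV into supercomplexes (chromosome 17, 83501918 to 83517330, minus strand, GRCm38). Whether the protein does so in the mice used here was not measured. The RNA level of Cox7a2l was 401 CPM in PBS, 236 CPM in 3-day WGP and 352 CPM in 7-day WGP. The log2 ratios were -0.77 (-0.84 to -0.69) and -0.19 (-0.25 to -0.13). With TMM factors the 7-day ratio turned to 0.07. At 3 days the ratio was below -0.5 in each of the class's clusters, at -0.60 in cluster 0, -0.66 in cluster 7 and -0.73 in cluster 8. Within cells with Xist UMIs it was -0.41 (-0.58 to -0.25), with 399, 301 and 355 CPM, and did not pass 1.5-fold. At 7 days the ratio was above 0 in cluster 7 (0.21, interval -0.01 to 0.43).

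Complex V, the ATP synthase, had all 15 genes tested above 0 at 7 days (median 0.31), and 10 of 15 at 3 days (median 0.08). Atp5k, subunit e of the membrane part, was higher at both times, with 194 CPM in PBS, 310 CPM in 3-day WGP and 306 CPM in 7-day WGP. Atp5g3, which encodes the ring subunit c, was highest at 3 days, with 160, 273 and 243 CPM and a log2 ratio of 0.77 (0.67 to 0.86). It did not pass 1.5-fold at 3 days within any cluster, with ratios of 0.52 in cluster 0, 0.55 in cluster 7 and 0.30 in cluster 8, or within cells with Xist UMIs (0.43). The other genes for the same ring protein differed less, with 231, 245 and 265 CPM for Atp5g1 and 471, 394 and 513 CPM for Atp5g2. Atp5l, subunit g, stood at 473, 601 and 719 CPM. The catalytic head showed small differences, with 314, 349 and 324 CPM for Atp5a1 and 359, 345 and 412 CPM for Atp5b, and Atp5d of the central stalk was lowest at 3 days with 301, 233 and 333 CPM.

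Promoter letters of factors known to bind genes of this pathway were counted, because most of these genes followed one another across classes. RefSeq windows on GRCm38.p6 from 250 bases before to 50 bases after the start were found for 69 of the 85 genes. The NRF1 core letters GCGCATGC, on either strand, stood in 10 of the 69 (14.5%) and in 3.05% of the 27025 genes with a window, and the ETS/GABPA letters CCGGAAG in 19 (27.5%) and in 9.93%. The YY1 letters AAGATGGC stood in 9 of the 69 and in 3.19%, and the ERR letters TCAAGGTCA in 2 (2.90%) and 0.466%. The ETS and YY1 letters can share the bases AAG, and no other pair was counted as the same match. Of the 8 genes past 1.5-fold at 7 days, 2 held the NRF1 letters (Atp5k and Atp5l), 4 the ETS letters (Atp5k, Atp5l, Cox8a and Ndufb6), 1 the YY1 letters (Ndufc1) and 0 the ERR letters. A match is a description and not a bound site. The 250 bases before the start are shown for 3 of these 8 genes, from 5' to 3' on the gene's minus strand, with matched letters in capitals.
Cox8a (chr19:7217617-7217866): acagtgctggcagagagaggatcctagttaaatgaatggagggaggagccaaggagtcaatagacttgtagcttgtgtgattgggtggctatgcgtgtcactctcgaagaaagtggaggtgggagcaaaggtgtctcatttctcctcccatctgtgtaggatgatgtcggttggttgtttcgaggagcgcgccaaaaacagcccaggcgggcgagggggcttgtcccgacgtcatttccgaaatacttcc
Atp5l (chr9:44920743-44920992): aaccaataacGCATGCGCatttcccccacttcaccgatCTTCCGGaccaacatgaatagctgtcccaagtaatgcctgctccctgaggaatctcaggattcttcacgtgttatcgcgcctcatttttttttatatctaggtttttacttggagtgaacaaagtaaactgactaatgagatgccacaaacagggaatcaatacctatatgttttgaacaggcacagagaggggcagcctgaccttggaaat
Ndufb6 (chr4:40279422-40279671): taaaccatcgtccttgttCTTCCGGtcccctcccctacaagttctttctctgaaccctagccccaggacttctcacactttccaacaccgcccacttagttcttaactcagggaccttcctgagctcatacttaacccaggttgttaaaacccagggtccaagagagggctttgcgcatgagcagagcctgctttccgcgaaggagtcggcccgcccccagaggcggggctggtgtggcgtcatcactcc
In Atp5l the capitals mark the NRF1 letters 240 to 233 bases before the start and the ETS letters 212 to 206 bases before it, both read on the other strand, and in Ndufb6 they mark the ETS letters 232 to 226 bases before it. The stretch of Cox8a held none of the letters, and its ETS match lay within the 50 bases after the start.

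The make-up of the class changed between libraries, so its clusters were read apart. Cluster 0, led by Ly6i, Cxcl9 and Cxcl10, held 150, 216 and 1077 cells in PBS, 3-day WGP and 7-day WGP. Cluster 7, led by Saa3, Arg1 and Marco, held 43, 435 and 325 cells, and cluster 8, led by the resident macrophage genes Pf4, Mrc1 and Cbr2, held 597, 99 and 38 cells. The 11 resident macrophage markers summed to 33880 CPM in PBS and 14190 and 8140 CPM in the WGP libraries, all 11 past 1.5-fold lower at both times. In PBS itself the 85 genes stood higher in cluster 0 (20049 CPM) than in cluster 7 (17299 CPM) or cluster 8 (17121 CPM).

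Within each cluster the 85 genes were above PBS at 7 days, by less than in the class as a whole. Cluster 0 stood at 20049, 21815 and 23844 CPM, log2 ratios of 0.12 and 0.25, and 5 genes were past 1.5-fold higher at 7 days, against 7.68% of all genes. Cluster 7 stood at 17299, 18106 and 19594 CPM (0.07 and 0.18), with 6 genes higher at 7 days, against 11.5%. Its 3-day ratio turned to -0.01 on the reduced total. Cluster 8 stood at 17121, 16338 and 19286 CPM (-0.07 and 0.17), with 3 higher at 7 days, against 8.72%. The 3-day difference therefore had no common sign across clusters. Complex IV at 7 days was at 0.32 in cluster 0, 0.27 in cluster 7 and 0.17 in cluster 8, each below the 0.49 of the whole class.

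**Figure D3:**
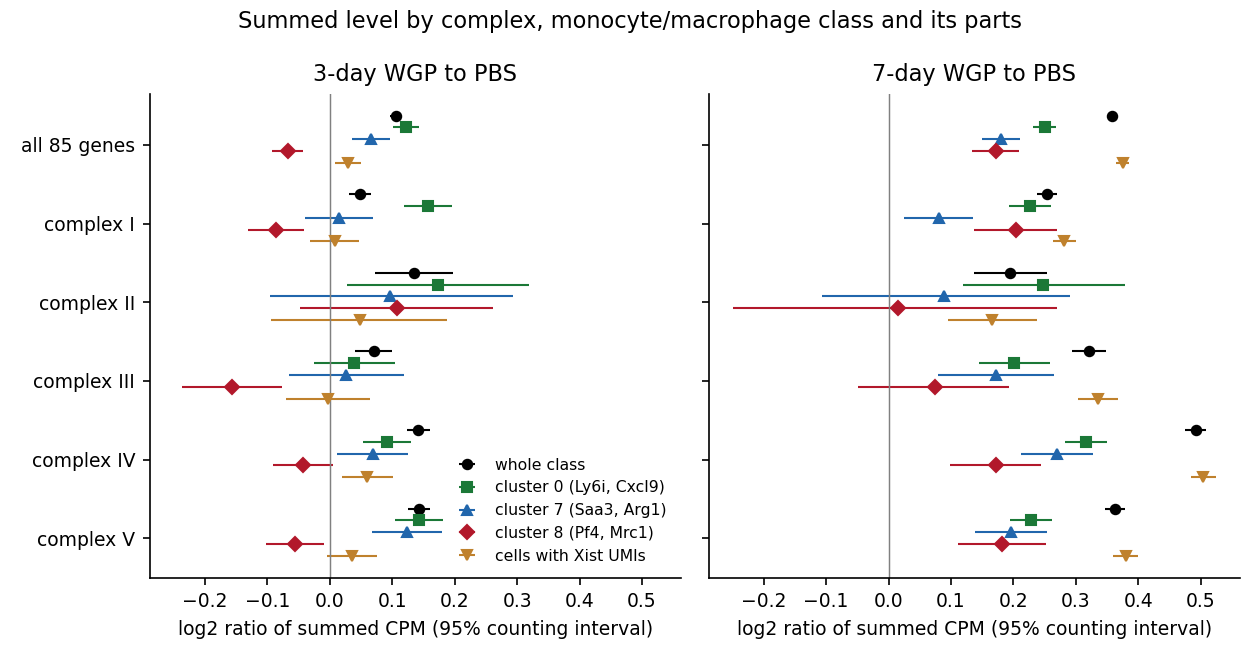
log2 ratio to PBS of the summed level (x axis, bars for the 95% counting interval) of all 85 genes and of each complex (y axis) in the whole monocyte/macrophage class (black), its clusters 0 (green), 7 (blue) and 8 (red), and its cells with Xist UMIs (brown), at 3 and 7 days. At 7 days every sum over the 85 genes lies right of 0, from 0.17 in cluster 8 to 0.37 in the Xist cells, whereas at 3 days cluster 8 lies left of 0 at -0.07.

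Within cells that had Xist UMIs and no Y-linked UMIs, the 3-day log2 ratio was 0.03 (0.008 to 0.051), and 1 gene was past 1.5-fold higher (Ndufa1, itself on the X chromosome), against 6.15% of all genes. The 7-day ratio in these cells was 0.37 (0.364 to 0.385), with 9 genes higher (Atp5e, Atp5k, Atp5l, Cox5b, Cox6c, Cox7a2, Cox7b, Cox8a and Ndufc1), against 8.46%. Over the class the 7-day difference was thus as large among Xist cells, and the 3-day difference was smaller. The clusters of these cells still differed, with 567 of the 744 Xist cells of PBS in cluster 8 and 435 of the 567 of 7-day WGP in cluster 0. Within the Xist cells of clusters 0, 7 and 8 the 7-day ratios were lower, at 0.27, 0.23 and 0.14. The 3-day ratios there were 0.03, 0.0005 and -0.03. Cells with Y-linked UMIs rest on the 6 cells of PBS and give no firm value for the class.

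Ndufa4, first described with complex I and now known to sit on complex IV (chromosome 6, 11900292 to 11907497, minus strand, GRCm38), split the clusters. Its symbol placed it with complex I here, and the sums, medians and counts of complexes I and IV rest on that placement. Over the class it was lowest of complex I at 7 days, with 328 CPM in PBS, 334 CPM in 3-day WGP and 283 CPM in 7-day WGP, and with TMM factors the 7-day ratio was 0.04, above 0. In cluster 7 it stood at 402, 302 and 169 CPM, log2 ratios of -0.41 (-0.61 to -0.21) and -1.25 (-1.46 to -1.03). In cluster 0 it stood at 332, 412 and 327 CPM and in cluster 8 at 321, 352 and 371 CPM. The fall was thus not seen in the other two clusters. AA467197, a gene outside the rule whose protein is related to Ndufa4 and was looked up after these values were seen, showed 0 UMIs in the PBS cells of cluster 7 and 295 and 238 CPM in the WGP libraries. Against a floor of 3 counts, 5.38 CPM, that is at least 54.8-fold and at least 44.3-fold higher. AA467197 stood at 2.27, 35.3 and 124 CPM in cluster 0 and at 7.01, 10.1 and 12.8 CPM in cluster 8. Over the cells of the class with Xist UMIs it stood at 4.45, 3.64 and 136 CPM, and Ndufa4 at 332, 383 and 275 CPM. The PBS values of cluster 7 rest on 43 cells, of which 42 had Xist UMIs and 0 had Y-linked UMIs. In cluster 7 of 3-day WGP 27 cells had Xist UMIs and 306 Y-linked UMIs, and in 7-day WGP 114 and 140. Sex and treatment therefore cannot be told apart in the 3-day values of cluster 7. Over the Xist cells of the class the 3-day log2 ratio was -0.29 (-2.24 to 1.19) for AA467197, with 4 UMIs in 3-day WGP, and 0.21 for Ndufa4. Neither the 3-day rise nor the 3-day fall was seen there.

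**Figure D4:**
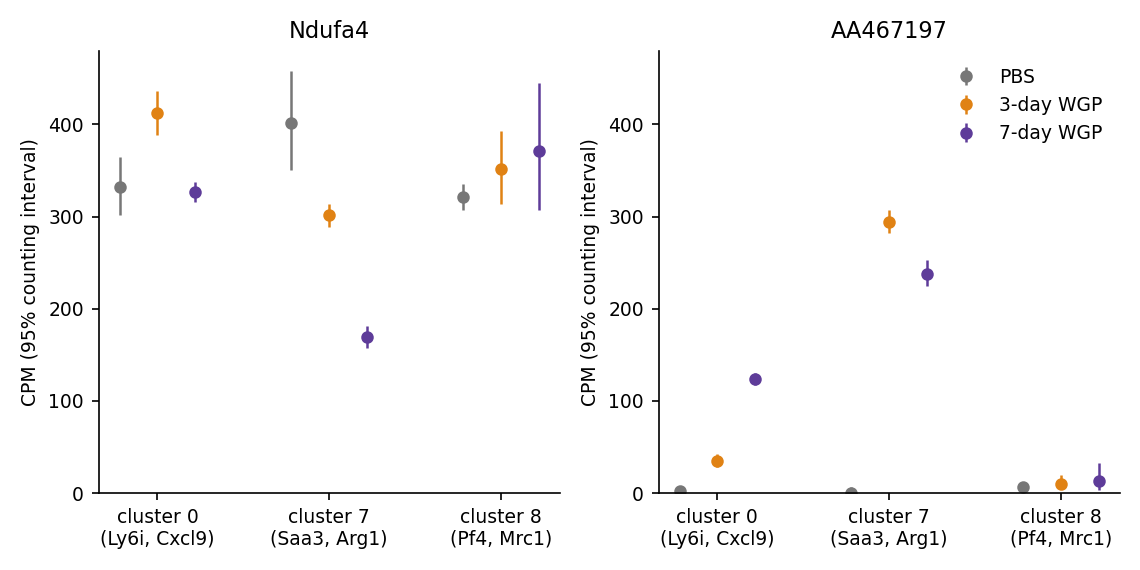
Level of Ndufa4 (left) and AA467197 (right) in CPM (y axis, bars for the 95% counting interval) in clusters 0, 7 and 8 of the monocyte/macrophage class, in PBS (grey), 3-day WGP (orange) and 7-day WGP (purple). In cluster 7 Ndufa4 runs from 402 CPM in PBS to 169 CPM in 7-day WGP while AA467197 runs from 0 to 238 CPM.

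Other genes of the pathway in monocytes/macrophages were read from fixed lists. These values cover the whole class only, so sex and the mix of clusters are not held apart in them. Of all genes of the class, 9.04% were past 1.5-fold higher and 8.32% lower at 3 days. At 7 days 9.54% were higher and 11.9% lower. Cycs, cytochrome c, which carries electrons between complex III and complex IV, had log2 ratios of 0.63 at 3 days and 1.18 at 7 days, and Cyc1, the cytochrome c1 of complex III, had 0.04 and 0.31. Of the assembly factors 16 of 43 were tested and 2 were past 1.5-fold higher at each time and 0 lower, led by Cox17 (0.97 and 0.93), a copper carrier for complex IV. Of the 17 citric acid cycle genes 0 were higher, and 2 at 3 days and 1 at 7 days were lower, with Idh2 lowest (-1.14 and -1.51). The carriers of ADP, ATP and protons summed to log2 ratios of 0.05 and 0.32, with Slc25a4 lowest (-0.62 and -0.44). Regulators of mitochondrial gene expression summed to -0.04 and -0.11, with 0 of 5 tested past 1.5-fold. Glycolysis genes moved further than any of these lists, with 13 of 15 higher at 3 days and 14 of 15 at 7 days, and a sum of 2596 CPM in PBS against 6782 and 7326 CPM.

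Cell quality and other cells' RNA differed beside these results. The median ribosomal-protein share of a monocyte/macrophage cell was 15.8%, 11.3% and 14.6%, and genes known to respond to tissue digestion summed to 3574, 6882 and 7714 CPM. In barcodes of at most 100 UMIs, which hold free RNA, the 85 genes stood at 12447, 16521 and 17419 CPM, and free RNA was put at 1.69%, 2.53% and 1.17% of the UMIs of lymphocytes. The part of these in the results was not tested. Depth moved with the level too, so cells were compared within depth bands. Among cells of 5000 to 10000 UMIs the 85 genes stood at 16294, 16540 and 21819 CPM, and the 7-day library was highest in every band, also among cells of at least 20000 UMIs (20510, 19122 and 21747 CPM). Per cell, the median share was 1.66%, 1.85% and 2.20%, with quartiles of 1.41 to 1.96%, 1.55 to 2.13% and 1.85 to 2.57%, and the medians were 1.6%, 1.8% and 2.2% after each cell was thinned to 1000 UMIs.

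In T cells the 85 genes summed to 16603 CPM in PBS, 18344 CPM in 3-day WGP and 20855 CPM in 7-day WGP, log2 ratios of 0.14 (0.13 to 0.16) and 0.33 (0.31 to 0.34). At 7 days 5 genes were past 1.5-fold higher (Atp5k, Cox5a, Cox7a2, Ndufa3 and Sdhaf1), against 5.33% of all genes. The cells of each sex gave different values. T cells with Xist UMIs stood at 19794, 17107 and 19662 CPM, log2 ratios of -0.21 (-0.25 to -0.18) and -0.01 (-0.04 to 0.02), and 0 genes were higher at 7 days, against 4.70% of all genes. T cells with Y-linked UMIs stood at 15092, 19045 and 21663 CPM, log2 ratios of 0.34 (0.31 to 0.36) and 0.52 (0.50 to 0.54), and 33 of 78 genes were higher at 7 days, against 11.7%. The difference between these groups of cells was largest in PBS. It was present within both T cell clusters of PBS, with 20343 CPM for Xist cells against 14941 CPM for Y cells in cluster 3 and 19045 against 15856 CPM in cluster 9. The mitochondrially encoded genes of T cells ran the other way from the nuclear ones, with log2 ratios of -0.17 and -0.27.

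Gamma-delta T cells were highest at 3 days, with 20095, 23554 and 21311 CPM and log2 ratios of 0.23 (0.20 to 0.26) and 0.08 (0.04 to 0.13). At 3 days 8 genes were past 1.5-fold higher (Ndufb6, Ndufs7, Ndufs8, Ndufv1, Sdhaf2, Sdhc, Uqcrc1 and Uqcrc2), against 3.65% of all genes. Of these 8, Ndufs7, Ndufs8 and Ndufv1 are core subunits of complex I and Uqcrc1 and Uqcrc2 the core proteins of complex III, and Ndufb6 is also among the 8 of monocytes/macrophages at 7 days. Within cells with Y-linked UMIs the 3-day ratio was 0.27 (0.22 to 0.32). NK cells stood at 20289, 22684 and 22765 CPM (0.16 and 0.17), with 0 genes past 1.5-fold higher at 3 days, against 2.96% of all genes, and 0 at 7 days, against 4.16%. The share of NK cells with Y-linked UMIs, among those with UMIs of either kind, was 40.4%, 93.2% and 62.8%. Within NK cells with Y-linked UMIs (38 in PBS) the ratios were 0.29 (0.23 to 0.35) and 0.26 (0.21 to 0.32), with 12 of 79 genes higher at 3 days, against 11.7% of all genes, and 9 at 7 days, against 12.3%. Their mitochondrially encoded genes had log2 ratios of -0.28 and -0.26.

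B cells stood at 14807, 15860 and 15482 CPM and log2 ratios of 0.10 (0.09 to 0.11) and 0.06 (0.05 to 0.08). No gene of the 78 was past 1.5-fold higher in B cells at 3 days, against 0.26% of all genes, or at 7 days, against 1.06%. The share of B cells with Y-linked UMIs, among those with UMIs of either kind, was near 75% in each library (74.8%, 75.7% and 73.6%), so sex was even there. Conventional dendritic cells stood at 20062, 20384 and 22824 CPM, log2 ratios of 0.02 (0.01 to 0.04) and 0.19 (0.17 to 0.20), with 0 genes past 1.5-fold higher at 7 days, against 5.65% of all genes. Their share of cells with Y-linked UMIs was 19.9%, 90.7% and 71.0%, and within those cells (52 in PBS) the ratios were 0.03 (-0.002 to 0.058) and 0.16 (0.14 to 0.19), with 3 genes higher at 7 days (Ndufa3, Ndufb7 and Ndufc1), against 9.44%. Both of their clusters showed this order, with 0.16 at 7 days in cluster 12 (Cd209a, Fscn1) and 0.23 in cluster 15 (Xcr1, Clec9a).

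Neutrophils as a class stood below PBS, and their clusters did not share that direction. With 84, 226 and 188 cells, the 85 genes summed to 11789 CPM in PBS, 10816 CPM in 3-day WGP and 9944 CPM in 7-day WGP, log2 ratios of -0.12 (-0.17 to -0.08) and -0.25 (-0.30 to -0.19). At 3 days 9 genes were past 1.5-fold lower, against 10.4% of all genes, and 5 higher, against 38.1%. At 7 days 16 were lower, against 12.4%, and 1 was higher (Ndufb4), against 31.8%. The median over all genes was positive in these cells (0.37 and 0.25), so the nuclear subunits lay well under it (-0.13 and -0.27). The summed level of complex I was below PBS at both times, with 3884, 3209 and 2892 CPM, and complex IV moved little, with 3434, 3322 and 3270 CPM. The mitochondrially encoded genes were higher, at 17026, 20886 and 24671 CPM. Cluster 22, led by the granule genes Camp, Ngp and Ltf of immature neutrophils, gave 34 of the 84 PBS cells and 13 and 6 of the others, and without it cluster 14 stood at 10140, 9983 and 9120 CPM, log2 ratios of -0.02 (-0.10 to 0.06) and -0.15 (-0.24 to -0.06). Cluster 22 itself was above PBS over all its cells, at 12354, 13876 and 13379 CPM (0.17 and 0.11). Its Xist cells (12, 4 and 1 cells) had ratios of -0.07 (-0.16 to 0.02) and 0.11 (-0.09 to 0.29). Its cells with Y-linked UMIs (6, 3 and 4 cells) had ratios of 0.62 and 0.53. The share of neutrophils with Y-linked UMIs was 21.4%, 90.1% and 71.6%, and within the Xist cells of cluster 14 (10, 6 and 18 cells) the ratios were 0.004 (-0.238 to 0.244) and 0.12 (-0.06 to 0.30).

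Plasma cells stood at 11311, 12656 and 8234 CPM on the full total. Their 7-day log2 ratio of -0.46 (-0.48 to -0.44) became 0.06 on the reduced total, which leaves out their immunoglobulin genes, and 0.19 with TMM factors. At 7 days 17 of 75 genes were past 1.5-fold lower, against 37.7% of all genes. The 78 plasma cells of 7-day WGP had a median depth of 41373 UMIs, against 28820 UMIs in PBS. Erythroid cells, whose haemoglobin takes most of their UMIs, stood at 568, 622 and 1106 CPM.

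The tissue isoforms of complex IV gave the sharpest class pattern. Cox6a2, the muscle and heart form of subunit VIa (chromosome 7, 128205435 to 128206387, minus strand, GRCm38), was highest by far in plasmacytoid dendritic cells, which are known for making type I interferon. These cells gave 327 of the 455 UMIs of PBS, 388 of 509 in 3-day WGP and 463 of 523 in 7-day WGP, from 43, 74 and 49 cells. Its level there was 1092 CPM (977 to 1217), 762 CPM (688 to 841) and 994 CPM (905 to 1088), and the highest value of another named class in any library was 11.6 CPM, in NK cells of 7-day WGP. A Cox6a2 UMI was found in 88.4%, 74.3% and 73.5% of plasmacytoid dendritic cells, and in 65.1%, 37.8% and 55.1% after thinning to 1000 UMIs, against 0.127%, 0.133% and 0.0694% of thinned monocyte/macrophage cells. Median depths were 6391, 5076 and 9324 UMIs in the former and 9999, 13960 and 10719 UMIs in the latter. No gene of the 85 was used to form the clusters. The level was lower at 3 days, whose interval did not overlap those of the other libraries.

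**Figure D5:**
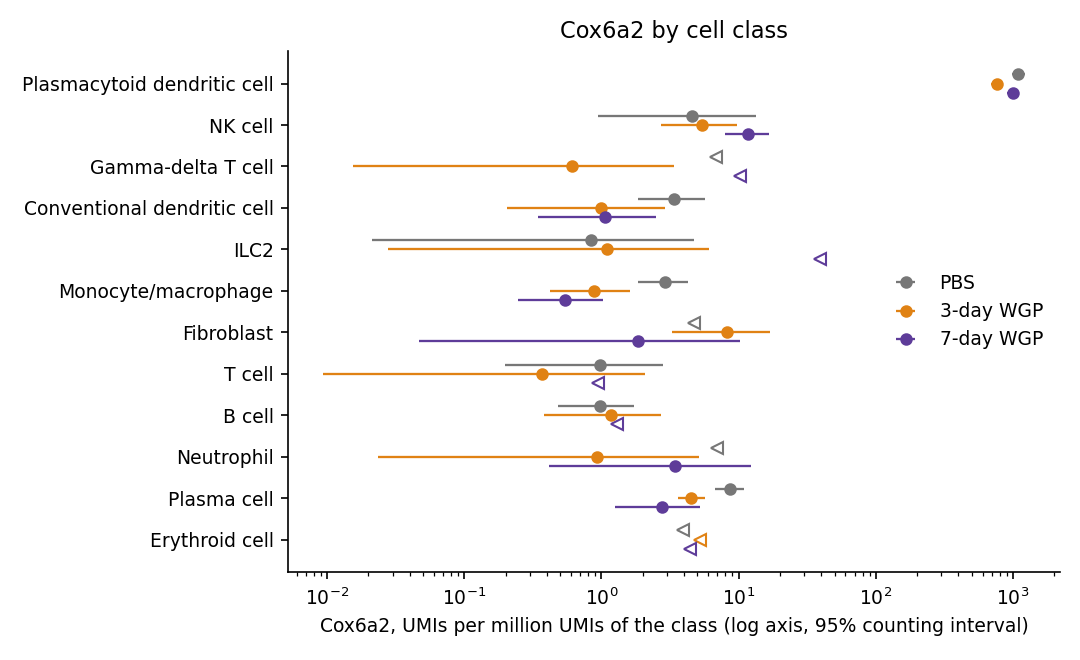
Level of Cox6a2 in each cell class (x axis, CPM on a log axis, bars for the 95% counting interval) in PBS (grey), 3-day WGP (orange) and 7-day WGP (purple), with open triangles at the upper limit where 0 UMIs were counted. The plasmacytoid dendritic cell points lie between 762 and 1092 CPM and no other class passes 11.6 CPM.

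The other rare isoforms were low throughout. Cox6b2, known from testis, was highest in conventional dendritic cells of PBS (22.1 CPM) and in fibroblasts of the WGP libraries (14.05 and 18.3 CPM). Cox7a1, the muscle form of subunit VIIa, stood at 8.68, 5.04 and 4.55 CPM in monocytes/macrophages, where it was below PBS at both times. Ndufa4l2, which is induced by low oxygen, was highest in fibroblasts (21.96, 4.68 and 7.33 CPM, from 17, 4 and 4 UMIs), and Cox4i2 reached 32 UMIs in the whole series. These genes and Cox6a2 were the 5 whose highest class stood at least 4 times above the median class in every library, although for Cox4i2 and Ndufa4l2 the median class was at 0, so that any UMI would pass.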

How the data were processed

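UMI counts per gene and barcode were deposited for 3 libraries of live CD45+ pancreas cells (PBS, 3-day WGP and 7-day WGP). Per the labels the authors made these counts with Cell Ranger 3.1.0 on mm10, and the files hold every barcode, unfiltered. Counts are of 3' ends, so levels of different genes were not compared, and isoforms or near-identical copies may share reads.

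From these counts, barcodes with at least 1000 UMIs, at most 30% mitochondrial UMIs and at most 40% ribosomal-protein UMIs were kept. This minimum replaced the authors' test for empty droplets. Scrublet (scanpy 1.11.5) marked 0, 5 and 3 doublets by its own threshold, which had not worked, so the top scores were removed at 0.8% per 1000 cells (205, 177 and 133 barcodes), and 13318 cells remained, more than the study kept. Cells were normalised with SCTransform in Seurat 5.3.0 and clustered at resolution 0.8 on 30 principal components of the 3000 most variable genes, less the 85 genes described. Clusters were named by marker lists, and a cluster led by cell cycle genes was left unnamed by a rule set after the clusters were seen.

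UMIs were summed per class and library and divided by the class total (CPM). Ratios carry exact binomial intervals of the split of counts, levels exact Poisson intervals, and shares of cells exact Clopper-Pearson intervals, at 95%. The size rule was 1.5-fold after 10 CPM was added, for genes of at least 20 CPM mean. The calculations were tested on simulated data. Named genes were the highest and lowest of each complex at each time, fixed subunits, tissue isoforms and genes at 4 times the median class. The genes and lists were chosen with earlier results of these data known. Gene positions are those of GENCODE M21 and promoters those of RefSeq, both on GRCm38. Alternatives are given in the closing section. With 1 library a group, no test was run.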

Additional observations from a re-analysis of the deposited data

Results flagged for a closer look

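In several groups of cells the summed level of the 85 genes stood on opposite sides of PBS under the same contrast, on both the full and the reduced total. The differences themselves were not tested, since each group was 1 library. Between cell classes, the log2 ratio to PBS at 3 days was -0.12427 in neutrophils (84 and 226 cells) and 0.10553 in monocytes/macrophages (790 and 750 cells). At 7 days it was -0.24554 in neutrophils and 0.35785 in monocytes/macrophages. The 3-day direction of neutrophils was not seen within their clusters, at -0.02 (-0.10 to 0.06) in cluster 14 and 0.17 (0.10 to 0.23) in cluster 22, which gave 34 of 84 cells in PBS and 13 of 226 in 3-day WGP. At 7 days these clusters parted, at -0.15307 in cluster 14 and 0.114944 in cluster 22, which held 6 cells of 7-day WGP. Within Xist cells the 3-day ratio of cluster 22 was -0.07 (-0.16 to 0.02). The 7-day ratios of Xist cells were 0.12 (-0.06 to 0.30) in cluster 14 and 0.11 (-0.09 to 0.29) in cluster 22, so the clusters did not part there. Within monocytes/macrophages, the 3-day ratio was 0.121766 in cluster 0 and -0.0675122 in cluster 8. Within T cells, it was -0.21048 in cells with Xist UMIs and 0.33564 in cells with Y-linked UMIs. Plasma cells at 7 days also lay below PBS on the full total, with a sign that turned on the reduced total.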

How the results depend on the processing

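Values are log2 ratios of the summed level of the 85 genes in monocytes/macrophages, computed again under each alternative that bears on them with the rest unchanged. Single clusters were not set against the other cells of a library, and the CPM added and the filter on low values bear on counts of genes only. As reported, the class stood at 0.2262, 0.2798 and 0.3353 against the other cells of PBS, 3-day WGP and 7-day WGP, at 0.1055 (3 days) and 0.3579 (7 days) against PBS, and 3 genes at 3 days and 8 at 7 days were past 1.5-fold higher, with 1 and 0 lower. The 7-day ratio to PBS was above 0 under every alternative run and the 3-day ratio in all but cluster 8 alone. Cluster 7 on the reduced total, which was not among these alternatives, stood at -0.01 at 3 days. A value is given where it left the counting interval of the reported one, and a count where it moved over 1.5 times, and the cause was not tested.

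Against the other cells, in the order PBS, 3-day WGP and 7-day WGP where 3 values are given, the ratio was 0.03311, 0.09181 and 0.4234 with TMM factors, -0.2487, -0.3811 and -0.06358 on the reduced total, 0.08144, -0.1259 and 0.3095 with an upper limit of UMIs at the knee of the rank curve, and 0.106, 0.1328 and 0.2715 in cells of 5000 to 15000 UMIs. It was 0.04448, -0.07382 and 0.1125 in cells with Xist UMIs, 0.06957, 0.3269 and 0.3421 in cells with Y-linked UMIs, 0.1622, 0.2597 and 0.3177 with doublets kept, and 0.257, 0.3083 and 0.3497 with a ribosomal-protein limit of 30%. It was 0.2355 (PBS) and 0.2884 (3 days) for at least 500 UMIs, 0.2174 (PBS) and 0.3194 (7 days) for at least 2000 UMIs, and 0.189 (PBS) and 0.2663 (3 days) with the 85 genes allowed among the clustering genes. It was 0.2021 (3 days) and 0.6184 (7 days) with each cell at the same weight, 0.1856 (PBS) with Leiden clusters, and 0.3237 (7 days) with a mitochondrial limit of 10%.

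Against PBS, at 3 and 7 days, the ratio was 0.2393 and 0.6198 with TMM factors, 0.04395 and 0.3247 on the reduced total, 0.02516 and 0.4425 with the upper limit at the knee, 0.1452 and 0.4324 in cells of 5000 to 15000 UMIs, 0.1362 and 0.397 with doublets kept, 0.1325 and 0.3892 with Leiden clusters, 0.1307 and 0.4037 with each cell at the same weight, and 0.1245 and 0.3882 with the 85 genes allowed in clustering. It was 0.02923 and 0.3747 in cells with Xist UMIs, 0.3763 and 0.6248 in cells with Y-linked UMIs (6 cells in PBS), 0.1218 and 0.2501 in cluster 0, 0.0658 and 0.1797 in cluster 7, and -0.06751 and 0.1718 in cluster 8. The values by cluster were chosen after seeing the data.

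The counts that follow stand without the share of all genes under the same alternative, so they are not read against a background. Genes past 1.5-fold higher were 5 at 3 days and 30 at 7 days with TMM factors. They were 36 and 41 in cells with Y-linked UMIs (9 and 4 lower), which rest on 6 cells of PBS. They were 1 and 3 with 50 CPM added, and 1 and 3 in cluster 8. At 7 days they were 21 with the upper limit at the knee, 18 in cells of 5000 to 15000 UMIs, 14 with doublets kept or with the 85 genes allowed in clustering, 13 with Leiden clusters or equal cell weights, and 5 in cluster 0. At 3 days 1 was higher in cells with Xist UMIs, with 0 lower there and in cluster 0, and at 7 days 1 was lower in cluster 7. In cells with Y-linked UMIs the ratio of Ndufc1 turned to -0.003583 and -0.08641. For the 164 other values, single genes and other classes among them, 2252 of 2396 recomputed values had the reported sign and 144 did not.

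No replicate was left out, since a group is 1 library. No paired analysis was possible because each group holds 1 library. Depth limits genes under 20 CPM and the classes of few cells, and the intervals cover counting error only.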
